A study of Mus musculus with 8 samples.

Results

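The primary cilium is a single sensory projection that grows from the mother centriole, the older centriole of the centrosome, on most neurons and glia. Intraflagellar transport carries cargo along it, the transition zone gates its base, and the BBSome, a coat of several BBS proteins, moves membrane receptors in and out. In vertebrates hedgehog signals pass through the cilium, and mutations in many of these genes cause Joubert syndrome, Bardet-Biedl syndrome or other ciliopathies.

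The genes described here are 33 genes of the centrosome, the primary cilium and the hedgehog pathway, out of 12921 genes named on the arrays. A probe set counted for a member when the platform annotation gave that gene, or an older name of it, and no other. Dzip1 and Cep112 were chosen by their difference in gene value between Nova2 knockout (Nova2 KO) and wild type, so that difference is described here and not tested. For the other 31 the list gives no measured value as its ground, but it was drawn up with earlier results of these data known. Ofd1, Arl13b, Sstr3 and Gli2 were on no probe set named for them and were not analysed here. The 29 others had 891 probe sets, found under the older names Ccdc46 for Cep112 and Tect1 for Tctn1, and all 29 passed the filter on dim signal.

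The groups were the cortex of 4 Nova2 KO and of 4 wild type mice, all of the outbred CD1 stock at postnatal day 10, with 1 exon array per mouse. Nova2 encodes a splicing regulator that binds RNA in neurons, and the labels do not give the allele or the deleted part of the gene. An exon array reads each gene through several short probe sets along its exons. All values are log2, and a gene value is the median over the probe sets kept for that gene, which numbered 10 (Kif7) to 59 (Ift172).

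The Nova2 gene itself had 16 kept probe sets, of which 6 were lower and 10 higher in Nova2 KO, and those named were picked after their values were seen. The most lowered, 5294108, was at 6.28 to 7.26 log2 on the Nova2 KO arrays against 8.53 to 8.87 log2 on the wild type arrays, and the next differed by -0.29 log2. The most raised, 4414499, was at 8.27 to 8.46 log2 in Nova2 KO and 7.49 to 7.84 log2 in wild type, also without overlap. Which of them lie in the deleted part is not known here. Slc17a7, the vesicular glutamate transporter of excitatory neurons, was bright on all arrays. It read 11.84 to 12.18 log2 in Nova2 KO and 12.02 to 12.30 log2 in wild type. Tbr1, another excitatory marker, was dimmer, at 7.68 to 7.98 log2 in Nova2 KO and 7.23 to 7.75 log2 in wild type. Of the 4 excitatory markers measured, 3 were higher in Nova2 KO, and Slc17a7 was the 1 lower. Array medians ran from 7.02 to 7.37 log2, and the arrays numbered 4 of both groups had the lowest medians and the most values at the floor of the scale. The number of arrays sets the precision.

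Dzip1 encodes a zinc finger protein of the ciliary base that in mouse acts in ciliogenesis and hedgehog signalling. Its gene value was 8.51, 8.50, 8.42 and 8.06 log2 in the Nova2 KO arrays, against 9.25, 9.34, 9.46 and 8.95 log2 in the wild type arrays. Every Nova2 KO array thus lay below every wild type array, and array 4 was the lowest of its group in both. The means were 8.37 ± 0.21 log2 in Nova2 KO and 9.25 ± 0.22 log2 in wild type (SD, n = 4 each), a difference of -0.88 log2 (SE 0.14), with wild type 1.84-fold above Nova2 KO.

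All 23 Dzip1 probe sets, whose positions in the gene were not analysed here, were lower in Nova2 KO, by a median of -0.82 log2, and 21 of them by more than 0.5 log2. The lowest, 5519880, differed by -1.01 log2 (SE 0.21). The smallest difference, -0.25 log2 (SE 0.11), was that of 4647800, which was also the brightest at 11.80 log2 in Nova2 KO and 12.05 log2 in wild type. Probe sets of 1 gene read the same RNA from the same mice and are not independent. Over 19 other ways of processing, the Dzip1 difference stayed between -0.98 and -0.76 log2.

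Dzip1l, the paralog of Dzip1 that also works at the ciliary base, had no such difference. It read 7.88, 7.92, 7.81 and 7.66 log2 in Nova2 KO and 8.01, 8.05, 7.91 and 7.74 log2 in wild type, and the groups overlapped. The difference was -0.11 log2 (95% interval -0.34 to 0.12, limma adjusted p = 0.726).

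**Figure D1:**
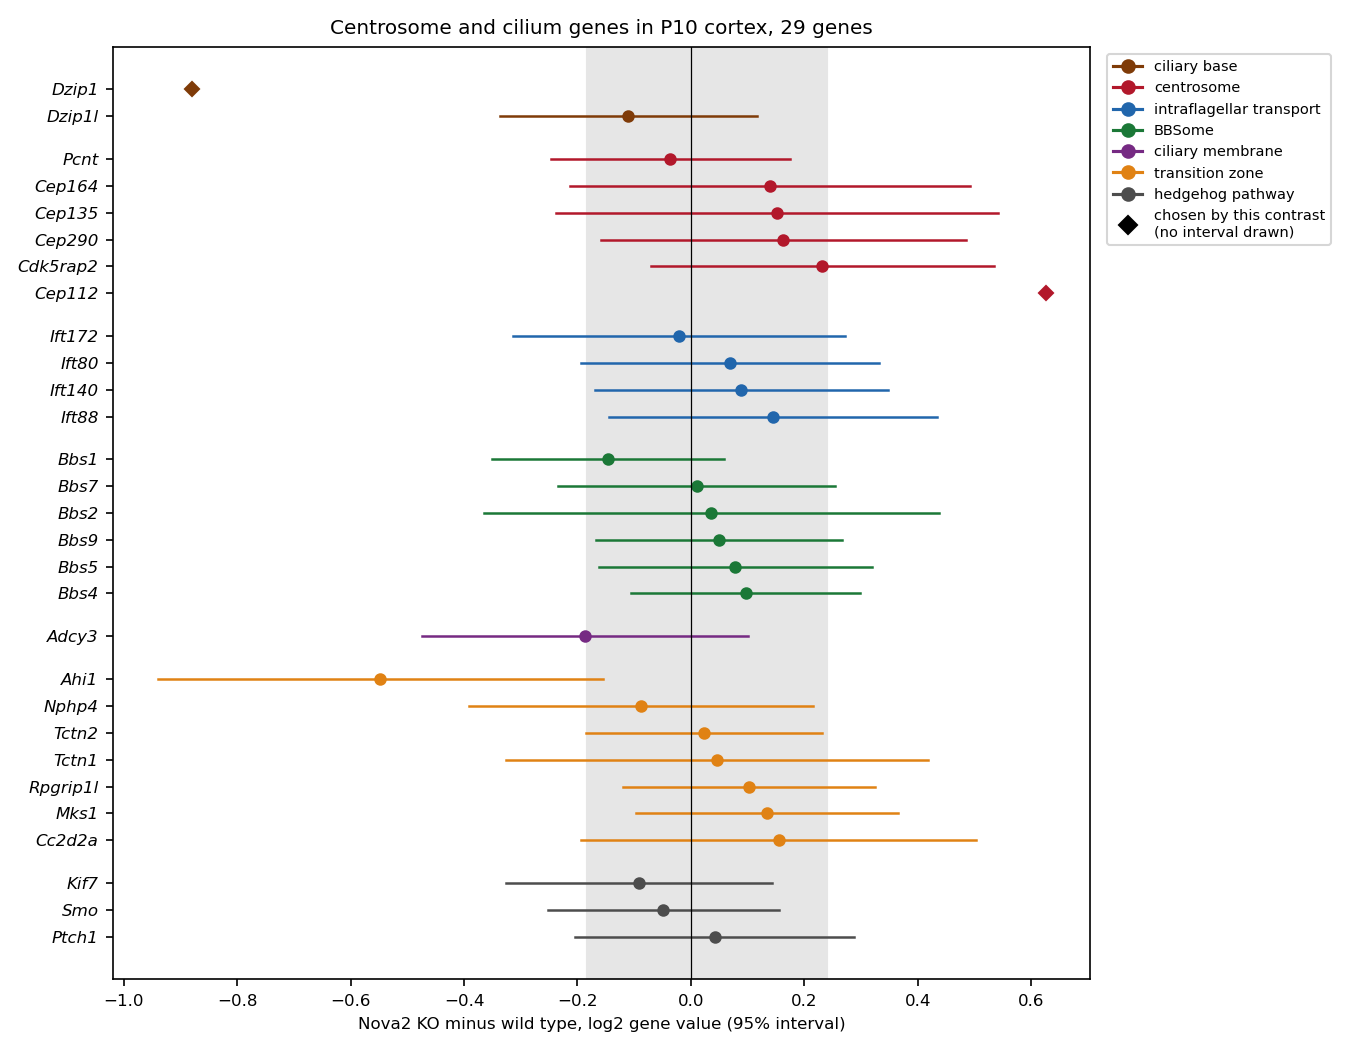
Difference between Nova2 KO and wild type for the 29 measured genes, as log2 gene value, with 95% intervals from limma; the shaded band holds the middle 80% of all genes tested (-0.18 to 0.24 log2). Dzip1 at -0.88 and Cep112 at 0.63 log2 (diamonds, no interval) and Ahi1 at -0.55 log2 lie outside the band, and Adcy3 at -0.19 log2 lies just below its lower edge.

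Cep112, a coiled-coil protein of the centrosome, was the member that differed most in the other direction. It read 7.03, 7.08, 7.17 and 7.30 log2 in the Nova2 KO arrays, against 6.53, 6.47, 6.63 and 6.45 log2 in the wild type arrays. All Nova2 KO values lay above all wild type values, and the arrays numbered 4 were highest in Nova2 KO and lowest in wild type. Means were 7.15 ± 0.12 log2 in Nova2 KO and 6.52 ± 0.08 log2 in wild type (SD, n = 4 each), a difference of 0.63 log2 (SE 0.098) or 1.54-fold.

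Of 24 kept Cep112 probe sets, 23 were higher in Nova2 KO. The largest difference was 1.46 log2 (SE 0.47) in 4838779, at 7.13 log2 in Nova2 KO and 5.67 log2 in wild type, and the smallest was -0.07 log2 (SE 0.22) in 5264868. Cep112 was a dim gene, and the size of its difference depended on which probe sets were read. The 6 dimmest probe sets differed by a median of 0.91 log2 and the 6 brightest by 0.37 log2. In 4 probe sets the wild type signal lay under the filter value of 5.86 log2, so that they were kept through their Nova2 KO signal. With the filter at the 50th percentile 8 probe sets were left and the difference was 0.25 log2, whereas without a filter it was 0.73 log2.

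**Figure D2:**
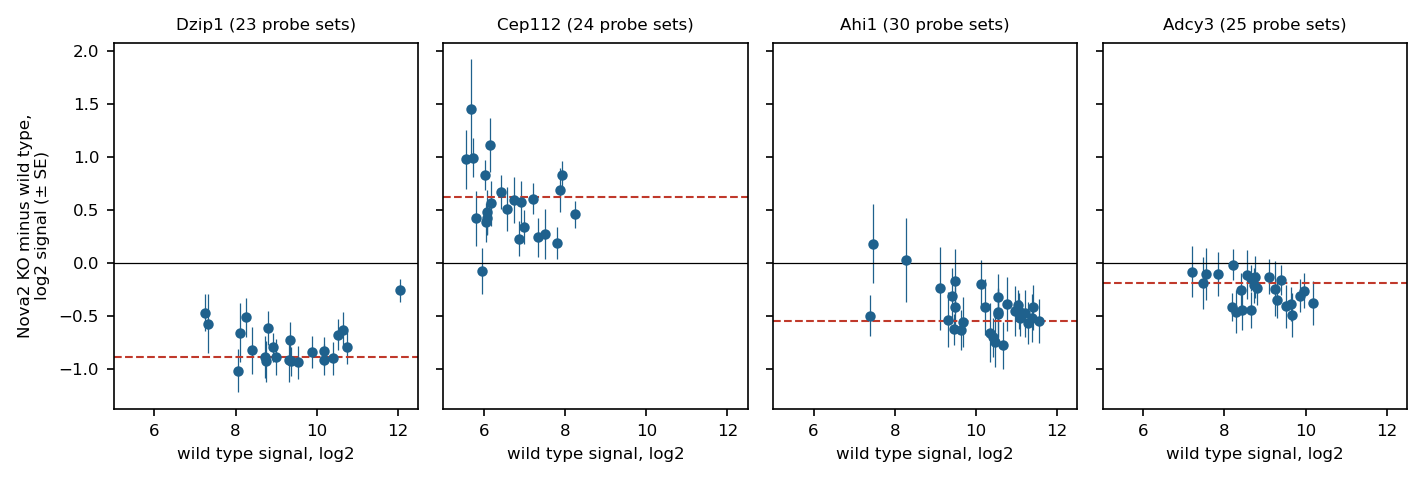
Difference of single probe sets (Nova2 KO minus wild type, log2 signal ± SE from limma, n = 4 per group) against their wild type signal in log2, for Dzip1, Cep112, Ahi1 and Adcy3; the dashed line is the difference of the gene value. All 23 Dzip1 and all 25 Adcy3 probe sets lie under 0, as do 28 of 30 for Ahi1, and 23 of 24 for Cep112 lie above 0, with the larger differences at low signal.

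None of the other 27 members passed the test across all genes. Over the whole array 25 of 11992 genes passed (limma, Benjamini-Hochberg adjusted p under 0.05), which is 0.208% of genes, with 0.0917% higher and 0.117% lower. Ahi1 alone (3.70% of the 27) had an unadjusted p below 0.05, as did 11.6% of all genes. Groups did not overlap in 0 of the 27, against 7.56% of all genes, 5.06% with Nova2 KO above and 2.5% with Nova2 KO below. Of the 27, 18 were higher and 9 lower, with a median of 0.046 log2, beside 0.022 log2 and 55.4% higher over all genes. Ahi1 was also the 1 of the 27 to differ by over 0.5 log2, as 0.817% of all genes did. The differences of the rest were smaller than 0.3 log2. Of the 27, the 95% intervals of 4 reached past 0.5 log2, that of Ahi1 on the lower side. Those of Cep135, Cdk5rap2 and Cc2d2a did so on the higher side.

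Ahi1, whose protein jouberin sits at the transition zone and is mutated in Joubert syndrome, stood apart from the other transition zone genes in size. It read 9.93, 10.23, 10.07 and 9.35 log2 in Nova2 KO, against 10.31, 10.69, 10.61 and 10.16 log2 in wild type. A single wild type array, number 4, lay within the Nova2 KO range, just under Nova2 KO array 2. The difference was -0.55 log2 (SE 0.18, 95% interval -0.94 to -0.16) and did not pass (limma adjusted p = 0.283, unadjusted p = 0.0101). Wild type stood 1.46-fold above Nova2 KO.

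Of the 30 Ahi1 probe sets, 28 were lower in Nova2 KO. The 12 probe sets with a difference over 0.5 log2 reached -0.77 log2 (4718701), and the exceptions were 4683243 at 0.03 log2 and 4978549 at 0.19 log2. Without Nova2 KO array 4, the lowest of all, the Ahi1 difference was -0.37 log2. With the array median as a covariate it was -0.54 log2 (SE 0.096) and passed (limma adjusted p = 0.0295), in a fit that called 54 genes. Over all 19 alternatives its limma adjusted p ran from 0.0295 to 0.503, and it passed in 2 of them.

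**Figure D3:**
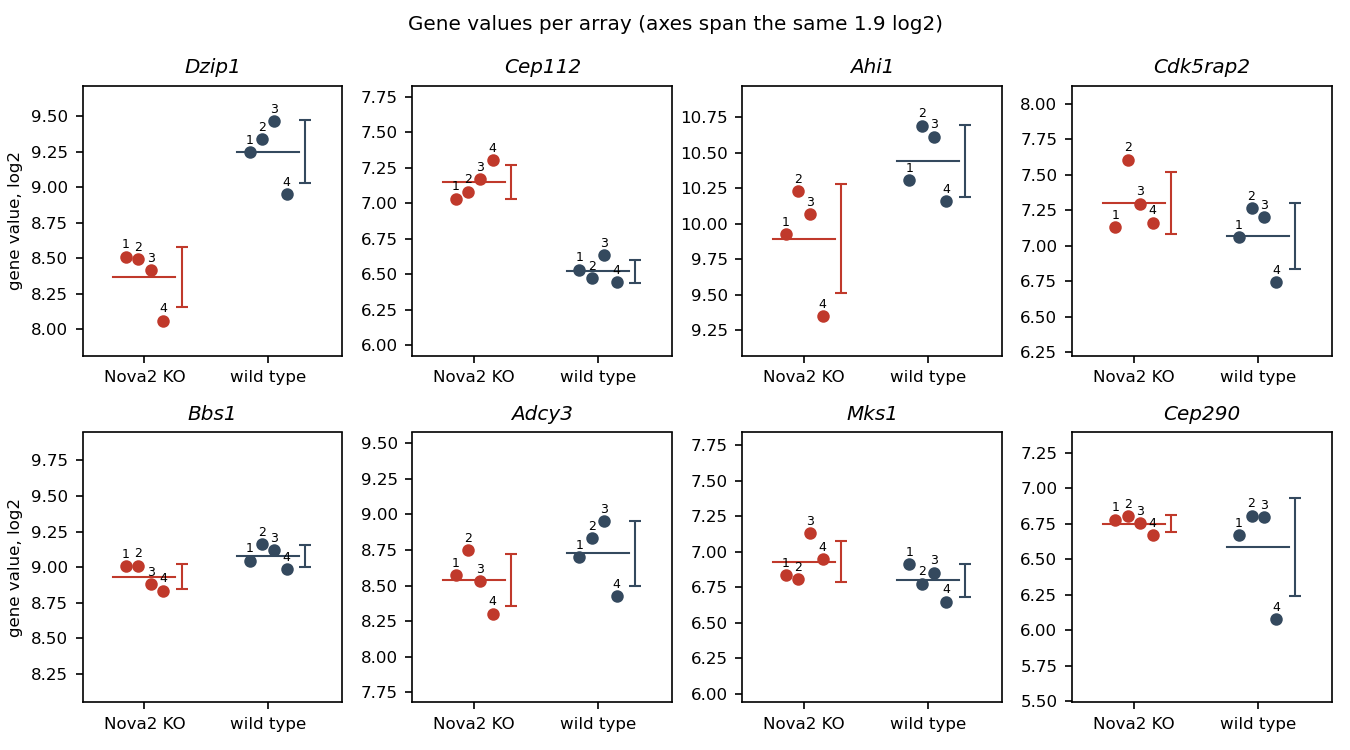
Gene value in log2 on each array for 8 members, with the replicate number beside each point, the group mean as a horizontal line and the SD (n = 4) as a bar; each axis spans 1.9 log2. Nova2 KO and wild type are apart for Dzip1 and Cep112, touch for Ahi1 and overlap for Cdk5rap2, Bbs1, Adcy3, Mks1 and Cep290, where wild type 4 lies at 6.08 log2 under the 7 other arrays.

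Among the centrosome genes, 5 of the 6 measured had a positive difference, Cep112 included. Cdk5rap2, a scaffold that recruits gamma-tubulin and is mutated in primary microcephaly, read 7.13, 7.61, 7.30 and 7.16 log2 in Nova2 KO and 7.06, 7.26, 7.20 and 6.74 log2 in wild type. Its difference of 0.23 log2 (SE 0.14) did not pass (limma adjusted p = 0.556). Cep290, which links membrane and microtubules at the transition zone, read 6.78, 6.80, 6.75 and 6.67 log2 in Nova2 KO and 6.67, 6.80, 6.80 and 6.08 log2 in wild type.

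Wild type 4 stood below the rest for Cep290, and its difference of 0.16 log2 (limma adjusted p = 0.711) was -0.0071 log2 without that array. Cep135, a protein of the centriole's cartwheel region, gave 0.15 log2, and -0.04 log2 without wild type 4. Cep164, of the distal appendages that dock the centriole to the membrane, gave 0.14 log2, and Pcnt, the pericentriolar scaffold pericentrin, gave -0.04 log2. None of these passed.

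The 4 intraflagellar transport genes lay within 0.15 log2 of no difference. Ift88, a core protein of the IFT-B train, read 7.76, 7.88, 7.85 and 7.52 log2 in Nova2 KO and 7.53, 7.82, 7.78 and 7.29 log2 in wild type (0.14 log2, SE 0.13, limma adjusted p = 0.715). Ift80 and Ift172, also of IFT-B, differed by 0.07 and -0.02 log2, and Ift140, of the retrograde IFT-A train, by 0.09 log2. The 95% interval of Ift172, from -0.31 to 0.27 log2, was centred nearest to 0.

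Of the 6 BBSome genes, Bbs1 had the lowest p. It read 9.01, 9.01, 8.88 and 8.83 log2 in Nova2 KO and 9.05, 9.16, 9.12 and 8.98 log2 in wild type, with a difference of -0.15 log2 (SE 0.094, limma adjusted p = 0.585). Without the filter on dim probe sets the sign of Bbs1 turned, to 0.15 log2. Bbs4 read 8.50, 8.42, 8.46 and 8.36 log2 in Nova2 KO and 8.46, 8.28, 8.37 and 8.24 log2 in wild type (0.10 log2, SE 0.093, limma adjusted p = 0.73).

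Bbs5, Bbs7 and Bbs9 differed by 0.08, 0.01 and 0.05 log2 and did not pass. Bbs2 varied more between mice than between groups. It read 8.53, 7.59, 8.0 and 7.73 log2 in Nova2 KO and 8.21, 7.70, 8.0 and 7.80 log2 in wild type, so that array 1 was highest and array 2 lowest in both groups. Bbs7 had the same highest and lowest arrays in both groups, at 7.97 and 7.70 log2 in Nova2 KO and 7.99 and 7.57 log2 in wild type.

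Adcy3, the adenylyl cyclase that marks neuronal cilia, was the 1 measured gene of the ciliary membrane. It read 8.57, 8.75, 8.53 and 8.30 log2 in Nova2 KO and 8.70, 8.83, 8.95 and 8.42 log2 in wild type. The groups overlapped, and the difference of -0.19 log2 (SE 0.13, 95% interval -0.47 to 0.10) did not pass (limma adjusted p = 0.624). All 25 of its probe sets were lower in Nova2 KO, by -0.49 to -0.01 log2. They read the same RNA from the same mice and are not independent.

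Besides Ahi1, the transition zone genes stayed within 0.16 log2 of no difference. Mks1, mutated in Meckel syndrome, read 6.84, 6.81, 7.13 and 6.95 log2 in Nova2 KO and 6.91, 6.77, 6.85 and 6.65 log2 in wild type (0.13 log2, SE 0.11, limma adjusted p = 0.663). Rpgrip1l, a scaffold of the zone, read 7.34, 7.46, 7.50 and 7.34 log2 in Nova2 KO and 7.36, 7.47, 7.27 and 7.13 log2 in wild type (0.10 log2, limma adjusted p = 0.739). Cc2d2a (0.15 log2), Tctn1 (0.05 log2), Tctn2 (0.02 log2) and Nphp4 (-0.09 log2) did not pass.

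The hedgehog genes showed no difference past the threshold. Ptch1, the receptor and itself a target of the pathway, differed by 0.04 log2 (95% interval -0.20 to 0.29, limma adjusted p = 0.924). Smo, the signal transducer that enters the cilium, differed by -0.05 log2 (95% interval -0.25 to 0.15), and the ciliary-tip kinesin Kif7 by -0.09 log2 (95% interval -0.33 to 0.14). The sign of Kif7 turned without the filter on dim probe sets, to 0.19 log2. Gli1, a direct target gene of the pathway that is not among the 33, gave 0.17 log2 (limma adjusted p = 0.621).

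Array brightness moved with the members. Wild type 4 was the lowest of the 8 arrays for 16 of the 27 members other than Dzip1 and Cep112, and Nova2 KO 4 for 7. Without wild type 4, 6 of the 27 were higher in Nova2 KO in place of 18, and their median was -0.014 log2. The part of array brightness in the single differences was not tested beyond the settings given here.

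**Figure D4:**
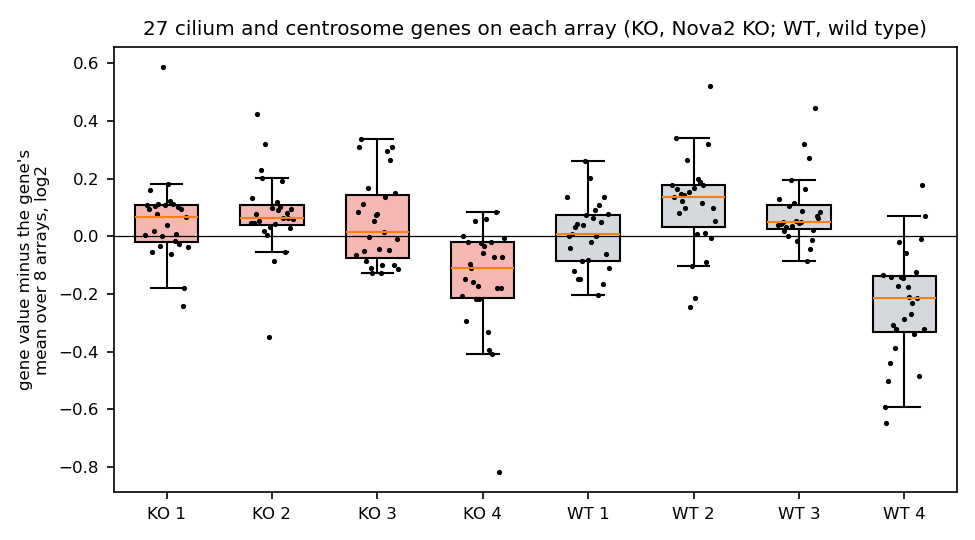
Deviation of each of 27 genes (without Dzip1 and Cep112) from its own mean over the 8 arrays, in log2, with 1 box per array (box, quartiles; whiskers, 1.5 times the interquartile range; dots, genes) for Nova2 KO (KO) and wild type (WT). Nova2 KO 4 and wild type 4 lie lowest, and wild type 4 was the lowest array for 16 of the 27 genes.

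Exon usage was read as the splicing index, the log2 signal of a probe set less its gene's value on that array. Of 746 probe sets in the 27 members, 0 passed, where 0.0139% of all probe sets did (27 of 194707, limma), 0.00565% higher and 0.00822% lower. There were 49 with an unadjusted p under 0.05, or 6.57%, against 6.61% of all probe sets. For the signal of single probe sets, without division by the gene, 0 of the 746 passed (0.00681% of all probe sets did, 0.0034% higher and 0.0034% lower) and 48, or 6.43%, had an unadjusted p under 0.05, against 6.68% of all. Both shares of the members lay near those of the whole array.

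The member probe sets with the lowest p for exon usage are given for their values. Cep164 probe set 5442289 had an index of -1.50, -1.75, -1.30 and -1.15 log2 in Nova2 KO, against -0.82, -0.79, -0.67 and -0.98 log2 in wild type, without overlap. It differed by -0.61 log2 (SE 0.14, limma adjusted p = 0.542). Its signal was dim, at 5.78 ± 0.30 log2 in Nova2 KO and 6.25 ± 0.41 log2 in wild type (SD, n = 4 each). The Nova2 KO signal lay under the filter value of 5.86 log2, so that this probe set was kept through its wild type signal. Dzip1l probe set 4359636 had an index of -0.55, -0.44, -0.44 and -0.45 log2 in Nova2 KO, against 0.11, -0.13, -0.20 and 0.12 log2 in wild type. It differed by -0.44 log2 (SE 0.11, limma adjusted p = 0.55).

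Ptch1 probe set 4487706 was at -0.43 log2 and Cep290 probe set 4973505 at -0.51 log2 relative to their genes. Mks1 probe set 4774095 was at 0.40 log2, with a signal of 6.80 log2 in Nova2 KO and 6.26 log2 in wild type. Ahi1 probe set 4947354 was at 0.36 log2, as its own signal differed by -0.19 log2 while the gene value differed by -0.55 log2. The limma adjusted p of these 4 lay between 0.558 and 0.654. In Dzip1 the index ran from -0.13 to 0.62 log2 and in Cep112 from -0.70 to 0.83 log2.

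Further genes of the same structures, 76 measured of 100 listed, gave 0 calls with limma in either direction, and 1, Ccp110, in 1 of the 19 alternatives. An unadjusted p below 0.05 was seen for 12 (15.8%, against 11.6% of all genes), all 12 of them higher in Nova2 KO. In 8 (10.5%, against 7.56% of all genes) the groups did not overlap, and in all 8 Nova2 KO was above. The median was 0.084 log2, with 55 higher and 21 lower, and it was 0.017 log2 without wild type 4.

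The 22 other genes of intraflagellar transport and its motors had a median of 0.11 log2, with 18 higher. Ift74, which with Ift81 forms the tubulin-binding module of IFT-B, read 8.20, 8.19, 8.28 and 8.43 log2 in Nova2 KO, against 8.02, 8.06, 7.89 and 7.79 log2 in wild type (0.33 log2, SE 0.10, limma adjusted p = 0.265). Ift81 gave 0.32 log2 (limma adjusted p = 0.329). Groups did not overlap for Ift74 but did for Ift81.

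Among 18 other centriole genes, 16 were higher, with a median of 0.09 log2. Cep57, a centrosomal microtubule-binding protein, read 8.06, 7.77, 8.06 and 8.0 log2 in Nova2 KO, against 7.63, 7.59, 7.57 and 7.44 log2 in wild type (0.41 log2, SE 0.10, limma adjusted p = 0.185). Plk4, the kinase that starts centriole duplication, gave 0.30 log2 (limma adjusted p = 0.384).

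Of 13 genes of the transition zone and distal appendages, 10 were higher. Ccp110, which caps the centriole and must leave it for a cilium to grow, read 8.38, 8.51, 8.65 and 7.81 log2 in Nova2 KO and 7.93, 7.87, 7.73 and 7.41 log2 in wild type (0.60 log2, SE 0.17, limma adjusted p = 0.251). Nova2 KO array 4 lay within the wild type range. B9d1, of the transition zone, gave 0.38 log2 (limma adjusted p = 0.301).

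The BBSome subunit Bbip1 gave 0.30 log2 (limma adjusted p = 0.286) and the trafficking GTPase Rab8a 0.27 log2 (limma adjusted p = 0.321), in a list of 13 with 8 higher. Of 10 other hedgehog genes, 3 were higher, with Evc2 at -0.22 log2 and Hhat at -0.21 log2 (limma adjusted p = 0.431 and 0.513).

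**Figure D5:**
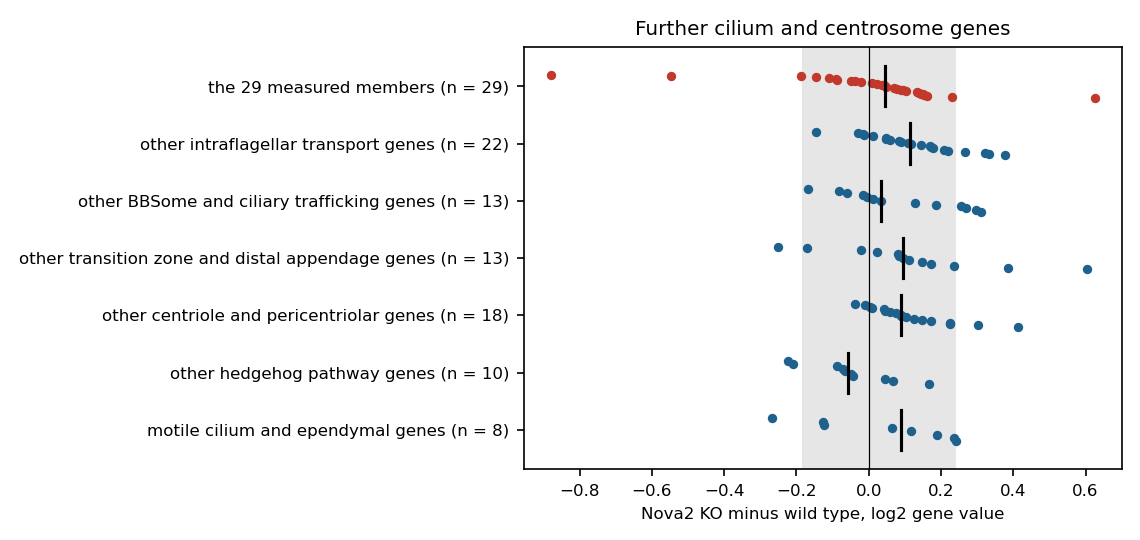
Differences (Nova2 KO minus wild type, log2 gene value) of the 29 measured members and of 6 further lists, 1 point per gene, with the list median as a black bar and the middle 80% of all genes as the shaded band. Apart from Dzip1, Ahi1 and Cep112, most members lie in the band, and Ccp110 at 0.60 log2 is the farthest gene of the further lists.

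Markers of other cells were read beside these genes, and in bulk tissue fewer cells of a type and less RNA per cell cannot be told apart. Motile cilium and ependymal genes, 8 measured of 18, had a median of 0.09 log2, with 5 higher and 3 lower. They had 0 calls and 1 unadjusted p under 0.05. Their mean level was 7.50 to 7.58 log2 in Nova2 KO and 7.34 to 7.61 log2 in wild type. Spag17 and Foxj1, of motile cilia, gave 0.24 log2 each (limma adjusted p = 0.419 and 0.521). Mcidas, of the same list, gave -0.27 log2 (limma adjusted p = 0.524). Ttr of the choroid plexus, another ciliated tissue, was at 13.19 to 13.38 log2 in Nova2 KO and 13.12 to 13.27 log2 in wild type. It differed by 0.08 log2, and Kl, the other choroid plexus marker measured, by -0.07 log2.

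Of 8 oligodendrocyte markers 7 were lower, the median being -0.43 log2. Of the 7, Olig2 was near no difference, at -0.0075 log2, and the 1 higher was Sox10, at 0.05 log2. Mog, a protein of the myelin surface, was the 1 that passed (-0.77 log2, limma adjusted p = 0.0301), where 0.208% of all genes did. Mean levels of that list did not overlap, at 8.58 to 8.84 log2 in Nova2 KO and 9.04 to 9.20 log2 in wild type. The 6 astrocyte markers had a median of -0.10 log2 and the 3 measured genes of dividing cells one of 0.11 log2, with 0 calls in either. Medians were 0.20 log2 for 4 excitatory and 0.03 log2 for 6 inhibitory neuron markers, -0.18 log2 for 5 microglial and -0.07 log2 for 4 endothelial markers. The part of cell composition in the members' values was not tested.

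Promoter sequence, which the arrays did not read, was searched for a motif. RFX transcription factors bind the X-box, an inverted repeat, and drive many ciliary genes. RefSeq promoters (build GRCm38.p6, 250 bases before to 50 after the start) matched 32 of the 33 members, all except Ift80, with 42 windows. The half-site GTTGCC, or GGCAAC on the other strand, was found in 14 of the 32 members (43.8%), against 15.2% of 9581 genes tested on the array and 14.1% of all 27025 genes. The paired form, GTNNCC and then GGNNAC after 0 to 3 bases, reads the same on both strands and can contain the half-site. It was found in 11 members (34.4%), against 5.7% of the genes tested and 4.38% of all genes. Repeats with other letters at its fixed bases were not counted, so these shares are of this form and not of every X-box. Median GC content of the windows was 60.3% for members and 60.7% for the genes tested.

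The 11 paired sites are shown because the form was found in a larger share of members than of the genes tested, though most members lack it. Capitals mark the paired motif, with up to 8 bases on either side, 5′ to 3′ on the strand of the gene.
Cep112 (chr11:108425174-108425203, plus strand): cccggagcGTCGCCATGGCAACagagttga
Ahi1 (chr10:20952560-20952589, plus strand): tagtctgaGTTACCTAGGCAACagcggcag
Adcy3 (chr12:4134161-4134189, plus strand): tgccacctGTGTCCTGGGAACccactaag
Bbs1 (chr19:4906605-4906634, minus strand): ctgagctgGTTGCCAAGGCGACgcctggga
Bbs4 (chr9:59353464-59353493, minus strand): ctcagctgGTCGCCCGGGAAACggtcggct
Bbs7 (chr3:36613489-36613518, minus strand): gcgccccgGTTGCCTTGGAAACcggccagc
Cep135 (chr5:76588680-76588707, plus strand): gccgttacGTTTCCGGGCACcgagggcc
Mks1 (chr11:87853183-87853212, plus strand): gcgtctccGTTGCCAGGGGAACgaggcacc
Nphp4 (chr4:152477903-152477932, plus strand): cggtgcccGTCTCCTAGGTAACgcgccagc
Tctn1 (chr5:122264411-122264432, minus strand): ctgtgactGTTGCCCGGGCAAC
Tctn2 (chr5:124598679-124598708, plus strand): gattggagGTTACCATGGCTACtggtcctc

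In 9 of the 11 both arms of the repeat were 2 bases apart, and 9 began within 100 bases of the start site. The whole windows that hold the paired site of Cep112 and of Ahi1 follow, as the members with the largest differences among those with such a site. Both genes also have windows, not shown, in which neither form was found.
Cep112 (chr11:108425016-108425315, plus strand): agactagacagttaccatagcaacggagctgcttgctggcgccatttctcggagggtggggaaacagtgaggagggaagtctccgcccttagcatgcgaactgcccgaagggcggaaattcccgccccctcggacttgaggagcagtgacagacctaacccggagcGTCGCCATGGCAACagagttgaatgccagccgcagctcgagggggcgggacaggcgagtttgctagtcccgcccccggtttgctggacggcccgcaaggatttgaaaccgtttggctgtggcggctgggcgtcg
Ahi1 (chr10:20952297-20952596, plus strand): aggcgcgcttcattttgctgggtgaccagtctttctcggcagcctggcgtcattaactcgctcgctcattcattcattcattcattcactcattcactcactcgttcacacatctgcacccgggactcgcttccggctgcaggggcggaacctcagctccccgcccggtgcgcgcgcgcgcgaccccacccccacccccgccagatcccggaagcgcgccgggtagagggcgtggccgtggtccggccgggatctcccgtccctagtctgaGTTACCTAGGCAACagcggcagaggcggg

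Without Dzip1 and Cep112, the 10 members with the paired form ran from -0.55 to 0.15 log2, with 6 higher and a median of 0.02 log2. The 16 measured members with a window but without the form ran from -0.11 to 0.23 log2, with 11 higher and a median of 0.06 log2. The difference between these sets was not tested. For Dzip1 neither form was found in its 3 windows, which says only that these letters are not there.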

How the data were processed

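Exon arrays were read for the cortex of 4 Nova2 KO and 4 wild type mice. The deposited log2 values had been made with PLIER, per the submitters' processing notes; its version, the background correction, the normalization between arrays and the genome build were not stated in these sources. The lowest value of each array, about 4 log2, is what an offset of 16 would give.

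Of 391597 probe sets, 228454 named 1 gene through the platform annotation, with 2203 symbols updated through synonyms (GRCm38.p6). A probe set was used where its mean on the 8 arrays exceeded the 25th percentile (5.86 log2), which left 293697. Gene values are medians over 3 or more kept probe sets, and exon usage took genes with 5 or more. In exon usage 307 probe sets without variance were left out. Two-sided tests of Nova2 KO less wild type used lmFit and eBayes of limma 3.58.1 in R 4.3.3, adjusted by Benjamini-Hochberg over all features at 0.05, and checked on simulated data. Plots used matplotlib 3.10.9.

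The members and lists were chosen with earlier results of these data known. By a rule, per-array values were given for Dzip1, Cep112 and the 10 other members with the lowest p. Up to 4 genes were named per further list. Named besides, after their values were seen, were Bbs2, Bbs7, Gli1, Slc17a7, Tbr1, Olig2, Sox10, Mcidas, Ttr, Kl and 3 Ahi1 probe sets. Alternatives covered the filter, the summary, the minimum number of probe sets, centring, quantile normalization, offset 1, the array median, the replicate number, eBayes with a trend and left-out arrays.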

Additional observations from a re-analysis of the deposited data

Results flagged for a closer look

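Of 58 groups of 4 arrays examined over the 29 measured members, 1 held an array far from the other 3, and about 1 in 20 is flagged by chance alone. For Ptch1, wild type 4 read 8.44 log2, where the next wild type array was at 8.83 log2; this gap made up 0.922 of the range of the group, against a critical value of 0.829.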

How the results depend on the processing

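For the 29 members 551 differences were recomputed under 19 alternatives: 541 moved by less than the spread within groups, 8 moved by more, and the 2 others, both of Ahi1, came to pass. Of the 27 members other than Dzip1 and Cep112, 7 had the same sign in every alternative (Ahi1, Adcy3, Bbs4, Cdk5rap2, Ift88, Mks1 and Smo). The number of genes past the threshold, 25, was 13 with median centring, 54 with the array median as a covariate, 80 with the titles' replicate number as a block, 11 without both arrays numbered 4, and 6 to 16 when single arrays were left out. Of the 27 others 0 passed, except 1, Ahi1, with the array median as a covariate and 1, Ahi1, with the replicate block (adjusted p = 0.0376, limma). The block also brought Ccp110, of the further lists, past the threshold (0.60 log2, SE 0.10, limma adjusted p = 0.0358). The labels tie the replicate number to no shared litter or day. Deviations of same-numbered arrays correlated at 0.143, 0.332, 0.0237 and 0.565 over genes, not all above 0.1, and not every array correlated best with its own number, so the number was not taken as a pairing. The median over the 27 ran from -0.014 (without wild type 4) to 0.086 log2 (without Nova2 KO 4). No probe set of the 27 passed in signal or exon usage (limma) under any alternative run. Probe sets of Dzip1 and Cep112 were not counted there. Signal and exon usage were not run for genes with 1 or more probe sets, which leaves them as they are. The causes were not tested. Low signal limits Cep112 and Cep290, in each of which 4 kept probe sets had a wild type signal under the filter value. Ift140 had 1 such probe set. Wild type means of Cep135, Mks1 and Cc2d2a were also low, at 6.65, 6.80 and 6.84 log2.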
